A study of Mus musculus with 12 samples.

Results

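Bach1 loss with Bach2 left intact was read from alveolar macrophages of mice without Bach1 (Bach1 KO, the labels' B1KO) set against those of wild-type mice (WT). Its members were chosen by the sample titles and are 6 of the 12 arrays of the series, 3 Bach1 KO and 3 WT, each from a different mouse. The other 6 arrays hold mice without both factors (Bach1/Bach2 DKO) and mice without Bach2 (Bach2 KO), 3 of each. All mice were female, of strain C57BL/6 and 8 to 9 weeks old, and the labels name no treatment. The cells were taken by bronchoalveolar lavage and sorted by flow cytometry, and their amplified RNA was hybridised to single-colour Agilent arrays. The sources do not describe how the alleles were made or whether the mice were littermates.

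Alveolar macrophages are the resident phagocytes of the airspaces, which clear surfactant, particles and senescent cells. BACH1 is a transcriptional repressor that pairs with small MAF proteins on sites shared with NRF2 and with AP-1 factors, and that leaves these sites when it binds heme. Genes known from other cells to be held down by it include Hmox1, which opens heme, Gclm, which serves glutathione synthesis, the iron exporter gene Slc40a1, and Spic, which drives the iron-recycling macrophages of the spleen. BACH2 is its close relative and is best known from lymphocytes.

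Values are given as log2 signal relative to the array's own 75th percentile. Means carry their SD, and differences (Bach1 KO minus WT) their SE, with n = 3 mice per genotype. A gene passed the test at a Benjamini-Hochberg adjusted p under 0.05 from limma over all genes. Where none of a group's 3 arrays read a probe well above background, only a lower bound of the fold is given ("at least").

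Start-site windows of 4 genes are shown, because they belong to both named genes that rose, to the gene that fell most, and to the known BACH1 target Gclm. They are RefSeq sequences of build GRCm38.p6, read 5′ to 3′ on the gene's strand, from 250 bases before to 50 bases after the annotated start. Capitals mark matches to either of 2 letter patterns on either strand: TGAGTCA, the core that AP-1 and BACH factors can share, and TGACNNNGC, the antioxidant response element core. The Tnfsf14 window is chr17:57194132-57194431 on the minus strand and holds 1 TGAGTCA, at position -160 from the start. The Plpp3 window is chr4:105157097-105157396 on the plus strand and holds no match. The Fbp1 window is chr13:62888233-62888532 on the minus strand and holds 1 TGACNNNGC match, read on the other strand at position -56. The Gclm window is chr3:122245307-122245606 on the plus strand and also holds 1 on the other strand, at position -134.
Tnfsf14: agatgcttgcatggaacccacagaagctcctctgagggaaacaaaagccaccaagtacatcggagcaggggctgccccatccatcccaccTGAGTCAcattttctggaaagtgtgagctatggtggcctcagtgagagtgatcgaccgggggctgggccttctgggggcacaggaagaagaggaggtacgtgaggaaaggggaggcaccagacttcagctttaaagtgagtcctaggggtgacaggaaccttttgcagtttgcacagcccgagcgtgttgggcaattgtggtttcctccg
Plpp3: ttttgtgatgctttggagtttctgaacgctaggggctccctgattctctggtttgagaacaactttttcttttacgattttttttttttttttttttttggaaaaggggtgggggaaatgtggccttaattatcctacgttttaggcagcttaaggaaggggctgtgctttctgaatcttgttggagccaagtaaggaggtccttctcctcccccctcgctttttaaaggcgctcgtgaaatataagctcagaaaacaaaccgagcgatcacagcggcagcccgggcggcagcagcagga
Fbp1: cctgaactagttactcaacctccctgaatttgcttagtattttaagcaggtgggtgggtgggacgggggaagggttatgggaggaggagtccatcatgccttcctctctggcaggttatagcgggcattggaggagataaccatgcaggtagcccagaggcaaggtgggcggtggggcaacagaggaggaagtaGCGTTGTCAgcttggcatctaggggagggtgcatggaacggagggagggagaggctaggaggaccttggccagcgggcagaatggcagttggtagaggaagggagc
Gclm: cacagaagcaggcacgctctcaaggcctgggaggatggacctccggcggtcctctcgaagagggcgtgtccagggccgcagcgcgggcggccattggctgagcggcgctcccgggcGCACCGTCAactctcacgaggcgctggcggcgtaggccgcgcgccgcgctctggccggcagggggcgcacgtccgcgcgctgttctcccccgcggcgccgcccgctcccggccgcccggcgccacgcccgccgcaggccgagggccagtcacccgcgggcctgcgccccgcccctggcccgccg

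Among 32851 such windows, 5.2% hold TGAGTCA, 0.155% hold it preceded by TGC, as in the MAF recognition element, and 12.4% hold TGACNNNGC. The extended pattern contains the core, and its other strand also fits TGACNNNGC. Of the 13 named genes that passed the test, 11 have a window, with 12 windows in all: 2 held TGAGTCA (Tnfsf14 and Asah2), 0 held the extension and 3 held TGACNNNGC (Fbp1, Btla and Tafa5). A match in such a window describes letters only. Hmox1, Slc40a1 and H2-Ab1 are named here without a sequence.

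Between 45.2% (Bach1 KO replicate 3) and 63.1% (Bach1 KO replicate 1) of the spots of these 6 arrays were well above background, and none was saturated. All 32 of 32 alveolar macrophage markers passed the background filter, and 0 of them passed the test by limma. Among them 2 had an unadjusted p under 0.05, Cd9 at -0.57 and Fabp5 at -0.62 (6.25% lower, against 3.11% of all genes). The summed signal of these markers, as a multiple of the array's 75th percentile, was 2116 to 3332 on the Bach1 KO arrays and 3034 to 3669 on the WT arrays. WT replicate 3 stood apart on the first principal component of the 6 arrays, which held 35.2% of the variance, and Bach1 KO replicate 3 on the second, which held 27.2%. All 6 arrays lay on slide 1. Slide row 1 held the WT arrays and Bach1 KO replicate 1, and slide row 2 held Bach1 KO replicates 2 and 3.

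Bach1, on chromosome 16, was read first as the targeted gene. Its probe gave 2.40, 2.55 and 2.53 on the Bach1 KO arrays and 3.72, 4.28 and 3.77 on the WT arrays. The groups did not overlap, but the difference of -1.43 ± 0.32 (2.69-fold) did not pass over all genes (adjusted p = 0.163). The probe stayed well above background on all 3 Bach1 KO arrays, and no source used here gives its position relative to the deleted part. On the arrays of the other genotypes it gave 2.59, 3.13 and 1.72 in DKO and 3.81, 4.12 and 3.88 in Bach2 KO (-1.45 ± 0.32, adjusted p = 0.0325). The better Bach2 probe gave -2.72, -2.51 and -3.47 in Bach1 KO, against -2.42, -2.18 and -8.13 in WT, the last not well above background. In DKO it gave -5.46, -3.19 and -4.95, all well above background. In Bach2 KO it gave -5.29, -3.72 and -5.29, the first not well above background. Since this probe also read a signal in cells without Bach2, it does not by itself show intact Bach2 in Bach1 KO.

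Of 24372 genes or transcripts tested, 17 passed (0.0698%): 5 were higher in Bach1 KO (0.0205%) and 12 lower (0.0492%). With no scaling between arrays the split was 21 higher and 15 lower of 36, and the median difference of all genes was 0.08 there, against -0.07 with scaling. An unadjusted p under 0.05 was reached by 1404 (5.76%), with 646 of them higher (2.65%) and 758 lower (3.11%), while 1749 had groups that did not overlap (7.18%). The 13 called genes with a name were Tnfsf14 and Plpp3, which rose, and Fbp1, Hpse, Btla, Klk8, Armcx2, Asah2, Tafa5 and 4 genes of MHC class II presentation, which fell. With slide row as a term, on slide 1 alone, 32 passed, 1 higher and 31 lower, and they held 6 of the 17. The count depended on single arrays and fell to 6 without WT replicate 1 (Fbp1, Tnfsf14, Btla, H2-Ab1, H2-Eb1 and an unnamed transcript), but was 138 without WT replicate 2, 27 without WT replicate 3, 46 without Bach1 KO replicate 1, 165 without Bach1 KO replicate 2 and 28 without Bach1 KO replicate 3.

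**Figure D1:**
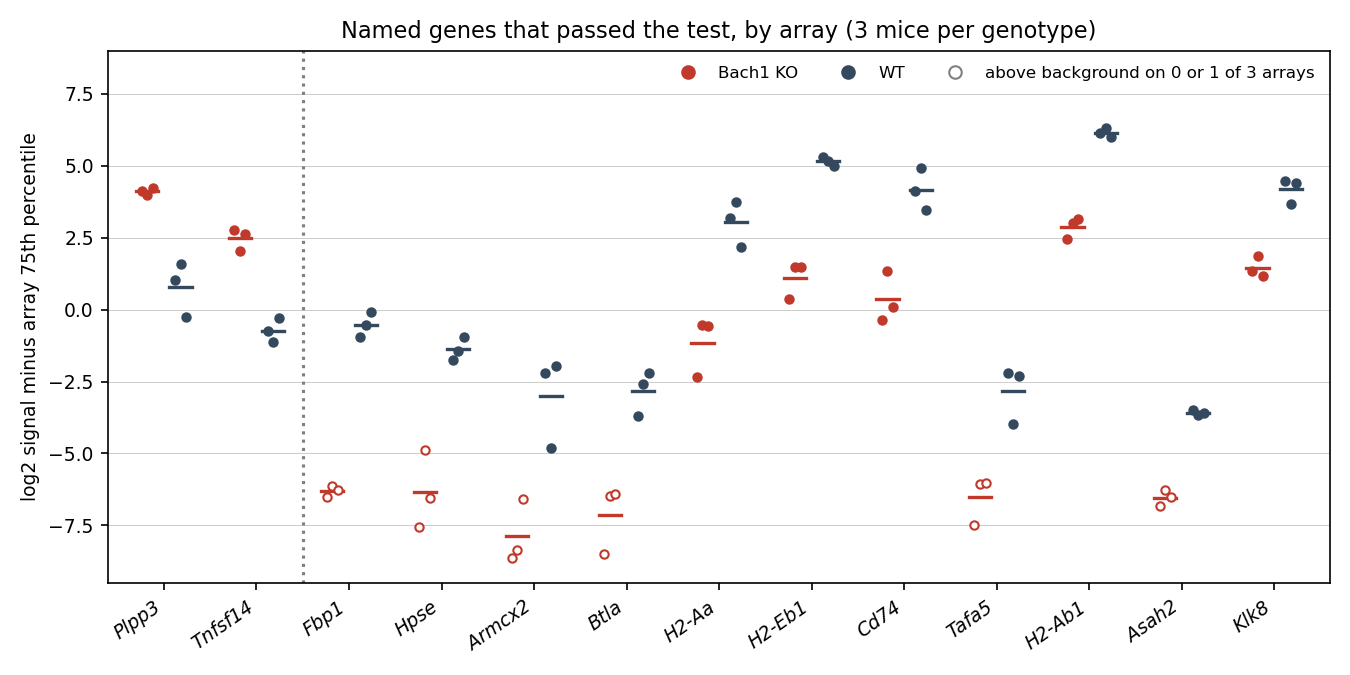
Log2 signal minus the array's 75th percentile (vertical axis) for the 13 named genes that passed the test, with 1 point per array, Bach1 KO left of WT, and a line at the group mean. Open points mark a group above background on at most 1 of its 3 arrays; the 2 genes left of the dotted line rose, the other 11 fell, and no gene's groups overlap.

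Both named genes that rose act at the cell surface. Tnfsf14 encodes LIGHT, a tumour necrosis factor family ligand of the receptors HVEM and LTBR. Its signal was 2.76, 2.03 and 2.64 in Bach1 KO, against -0.74, -1.14 and -0.30 in WT. All Bach1 KO arrays lay above all WT arrays, and the difference was 3.20 ± 0.35 (9.21-fold, adjusted p = 0.00433). Tnfsf14 passed in 26 of the 28 other settings run, all but slide row as a term and the fit of the 2 groups alone. Plpp3 encodes a membrane phosphatase that inactivates lysophosphatidic acid and sphingosine phosphate outside the cell. It read 4.11, 4.0 and 4.22 in Bach1 KO, against 1.04, 1.59 and -0.26 in WT. The Bach1 KO arrays lay close together and the WT arrays were spread, with a difference of 3.32 ± 0.41 (9.98-fold, adjusted p = 0.00954). Plpp3 passed in 24 of 28 other settings. It no longer passed without WT replicate 1 (adjusted p = 0.0627), with slide row as a term, on slide 1 alone or in the fit of the 2 groups alone.

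Fbp1, the gluconeogenic fructose bisphosphatase, fell most. It read -6.52, -6.13 and -6.26 in Bach1 KO, none of them well above background, against -0.95, -0.55 and -0.07 in WT, all well above it. It was thus at least 34.3-fold lower in Bach1 KO (adjusted p = 3.52e-05), and it passed in all 27 other settings that gave it a value. Of 36 gluconeogenesis and glycolysis genes, 33 passed the background filter: 0 rose and 1 fell, against 0.0205% and 0.0492% of all genes. The 1 was Fbp1 itself, so the count is no result about the other members. The median difference was -0.11, against -0.07 over all genes tested. Pck2, mitochondrial phosphoenolpyruvate carboxykinase, differed by 1.01 ± 0.46 (adjusted p = 0.868), and Pfkfb1, which sets the level of the sugar phosphate that inhibits Fbp1, by -1.35 ± 0.56 (adjusted p = 0.75).

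Hpse, heparanase, which cuts heparan sulfate chains of the matrix, also fell. It read -7.57, -4.87 and -6.53 in Bach1 KO, with 1 of 3 arrays well above background, against -1.76, -1.43 and -0.94 in WT. The difference was -4.95 ± 0.55 (adjusted p = 0.00433), and it did not pass without WT replicate 1 (adjusted p = 0.132). Hpse passed in 23 of 27 other settings, and not on slide 1 alone or in the fit of the 2 groups alone. A second Hpse probe differed by -2.99 in the same direction. It read -6.51, -5.08 and -6.36 in Bach1 KO, against -6.60, -2.94 and 0.54 in WT, so that its groups overlapped. Of 32 heparan sulfate genes, 19 passed the filter, with 0 higher and 1 lower, against 0.0205% and 0.0492% of all genes. The 1 was Hpse itself, so the count is no result about the other members. Hpse2, an inactive relative of heparanase, differed by 0.91 ± 0.35 (adjusted p = 0.648).

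Btla, on chromosome 16 and 42.5 Mb from Bach1, encodes an inhibitory receptor of lymphocytes and myeloid cells that binds HVEM, as LIGHT does. It read -8.50, -6.49 and -6.42 in Bach1 KO, none well above background, against -3.69, -2.59 and -2.19 in WT. Btla fell at least 7.10-fold (adjusted p = 0.0164) but did not pass without WT replicate 3 (adjusted p = 0.0625). It passed in 22 of 27 other settings, and not on slide 1 alone or in the fit of the 2 groups alone. The shared receptor gene Tnfrsf14, named after its values were seen, read -2.20, -2.37 and -2.04 in Bach1 KO, against -2.56, -2.39 and -2.16 in WT, a difference of 0.17 ± 0.29. Of 35 TNF superfamily and co-signalling genes, 23 passed the filter. Of these 1 rose (Tnfsf14) and 1 fell (Btla), against 0.0205% and 0.0492% of all genes, and 5 had an unadjusted p under 0.05, 3 of them higher. The higher ones are 13% of those measured, against 2.65% of all genes, and the lower ones 8.7%, against 3.11%. Both shares count the called genes Tnfsf14 and Btla, and the list was chosen with earlier results of these data known, which favoured high shares. The list's median was 0.09. Members that did not pass were Tnfsf13b, the B cell survival factor BAFF (-2.23 ± 0.62, adjusted p = 0.335), Tnfsf9, the ligand 4-1BBL (1.42 ± 0.44, adjusted p = 0.424), and Cd28 (1.17 ± 0.40, adjusted p = 0.542).

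Klk8, a secreted serine protease of the kallikrein family, was well above background on all 6 arrays. It read 1.33, 1.86 and 1.18 in Bach1 KO, against 4.47, 3.66 and 4.40 in WT, and fell by 2.72 ± 0.37 on the log2 scale (6.60-fold, adjusted p = 0.0164). With 1 array left out, it did not pass without WT replicate 1, WT replicate 3 or Bach1 KO replicate 3 (adjusted p up to 0.113). Klk8 passed in 20 of 28 other settings. It also failed with no scaling, with slide row as a term, on slide 1 alone and in the fit of the 2 groups alone. Of 30 kallikreins and trypsin-like proteases, 14 passed the filter, with a median of -0.32. Of these 0 rose and 1 fell, which was Klk8 itself, against 0.0205% and 0.0492% of all genes.

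Armcx2, an X-linked armadillo repeat gene, read -8.63, -8.35 and -6.59 in Bach1 KO, none well above background, against -2.19, -4.82 and -1.96 in WT. It was at least 6.32-fold lower (adjusted p = 0.0278), and passed in 13 of 27 other settings. The other 3 measured members of its family, Armc10, Armcx3 and Armcx5, differed by -0.35, -0.31 (a second probe by 0.00205) and -0.15, and none passed. Tafa5, a secreted chemokine-like peptide, read -7.49, -6.07 and -6.02 in Bach1 KO, with 1 of 3 arrays above background, against -2.20, -3.97 and -2.32 in WT. It fell by 3.70 ± 0.55 (adjusted p = 0.0304) and passed in 10 of 27 other settings. Asah2, the neutral ceramidase, had probes that disagreed. The probe that passed read -6.84, -6.27 and -6.53 in Bach1 KO, none well above background, against -3.49, -3.65 and -3.60 in WT, at least 4.19-fold lower (adjusted p = 0.00842). The gene passed in 19 of 27 other settings, some of which used its other probe. Its other probe differed by 1.27 in the opposite direction, with 2 of 3 arrays of each genotype above background, so that no direction holds for the gene over both probes.

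Sphingolipid and lysophospholipid genes were listed around Plpp3. Of 28, 20 passed the filter, with a median of 0.09. Of these 1 rose, which was Plpp3 itself, and 0 fell, against 0.0205% and 0.0492% of all genes. Spns2, an exporter of sphingosine phosphate, read -4.21, -3.59 and -5.90 in Bach1 KO, against -1.19, -2.19 and -1.80 in WT. These groups did not overlap, and its difference was -2.84 ± 0.57 (adjusted p = 0.115).

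MHC class II genes serve here as a base for size. H2-Ab1 read 2.46, 3.02 and 3.16 in Bach1 KO, against 6.13, 6.31 and 5.99 in WT, a difference of -3.27 ± 0.23. H2-Eb1, H2-Aa and Cd74 fell by 4.04, 4.20 and 3.80. Of the transactivator gene Ciita, Bach1 KO arrays read -2.09, -2.68 and -0.48 and WT arrays 0.33, -0.42 and 0.13 (-1.76 ± 0.61, adjusted p = 0.552).

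Of the genes known as BACH1 targets, Gclm, Hmox1, Spic and Slc40a1 lay higher in Bach1 KO without passing, and the ferritin genes, also known as targets, did not. Gclm, the modifier subunit of glutamate-cysteine ligase, read 2.88, 2.65 and 3.02 in Bach1 KO, against 1.23, 1.47 and 1.33 in WT. Each group was tight and they lay far apart, at 1.51 ± 0.24 (2.84-fold), just over the threshold (adjusted p = 0.0533). It passed in 9 of 28 other settings. Hmox1, heme oxygenase, read 7.28, 7.0 and 7.12 in Bach1 KO, against 5.04, 4.95 and 6.37 in WT. WT replicate 3 was the high one of its group, and the difference was 1.68 ± 0.33 (3.21-fold, adjusted p = 0.103). With 1 array left out it ranged from 1.43 to 2.14 and its adjusted p from 0.00504, without that array, to 0.311, and it passed in 5 of 28 other settings. A second Hmox1 probe read 3.72, 3.66 and 2.99 in Bach1 KO, against -0.15, 0.44 and 1.06 in WT, a difference of 3.01.

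Spic, the transcription factor of iron-recycling macrophages, read 2.35, 1.70 and 2.95 in Bach1 KO, against -5.71, -3.39 and -0.52 in WT. The WT arrays spanned more than the distance between the groups' nearest arrays, and 2 of the 3 were above background. The difference was 5.54 ± 0.94 (46.5-fold, adjusted p = 0.0628). With 1 array left out it ranged from 4.29 to 6.88 and its adjusted p from 0.00143, without WT replicate 3, to 0.164, and it passed in 6 of 27 other settings. Slc40a1, ferroportin, read 4.97, 4.76 and 4.83 in Bach1 KO, against 2.16, 3.13 and 3.33 in WT (1.98 ± 0.53, adjusted p = 0.298). It passed in 0 of 28 other settings, though its groups did not overlap.

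The rest of the heme and iron genes did not follow these. Of 34 listed, 32 passed the filter, 0 passed the test by limma, and 3 had an unadjusted p under 0.05, all higher: Spic, Hmox1 and Slc40a1. That is 9.38% of the list, against 2.65% of all genes. The other 29 differed by -0.80 (Slc11a1) to 0.38 (Abcb6), and the list's median was -0.14. The ferritin genes Ftl1 and Fth1 stood at -0.36 and -0.23, the transferrin receptor gene Tfrc at 0.21, and the biliverdin reductase genes Blvra and Blvrb, which act after heme oxygenase, at -0.35 and -0.39. Alas1, which starts heme synthesis, stood at -0.02.

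Of 40 glutathione, thioredoxin and NADPH genes, 38 passed the filter and 0 passed the test by limma. An unadjusted p under 0.05 was reached by 4 that were higher (10.5%, against 2.65% of all genes) and 2 that were lower (5.26%, against 3.11%). The higher ones were Gclm, the glutathione conjugate exporter gene Abcc1 (0.82 ± 0.27), the microsomal transferase gene Mgst2 (1.34 ± 0.47) and the cystine transporter gene Slc7a11 (0.91 ± 0.38). The lower ones were the epoxide hydrolase gene Ephx1 (-1.12 ± 0.32) and Prdx1 (-0.53 ± 0.23), and the list's median was 0.01. A second Ephx1 probe differed by -0.45, and a second Prdx1 probe by 0.17 in the opposite direction. Of 13 Bach, CNC and MAF genes, 11 passed the filter and 0 passed the test. Bach1 alone had an unadjusted p under 0.05. Nfe2l2, which encodes NRF2, differed by -0.30, its partner gene Mafk by 0.39 and Mafg by 0.04.

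**Figure D2:**
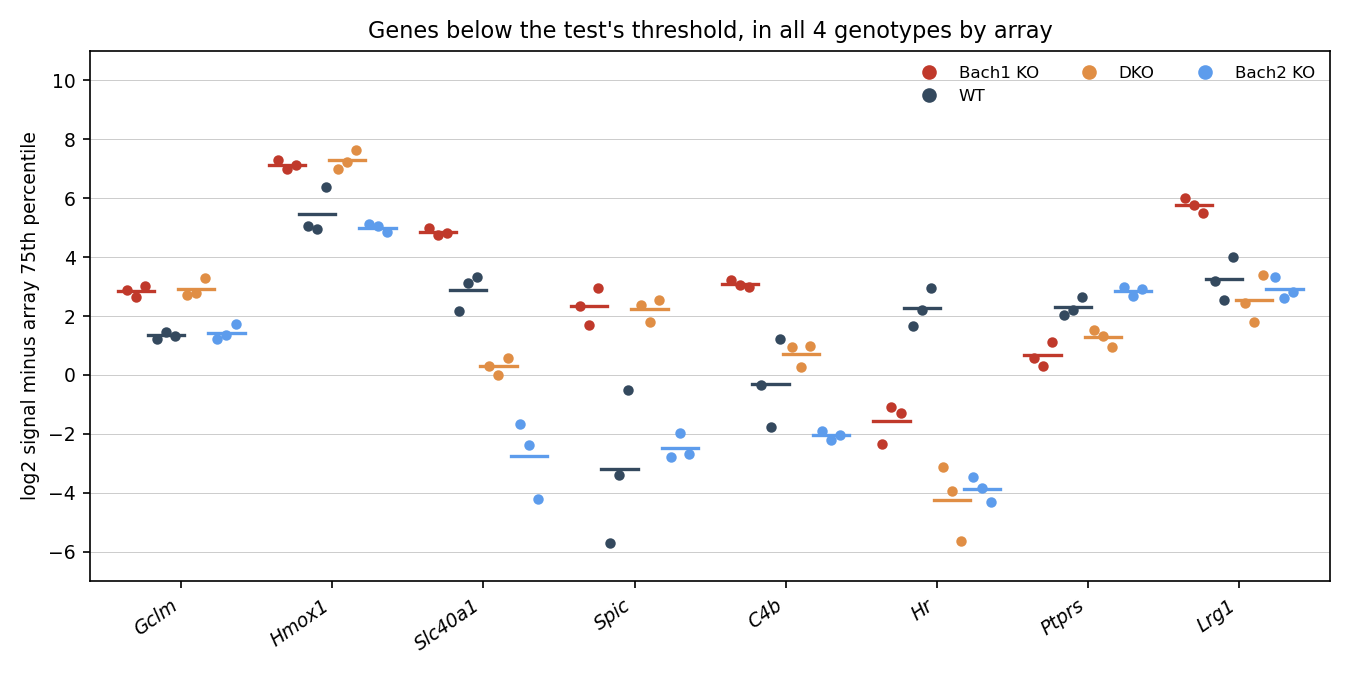
Log2 signal minus the array's 75th percentile (vertical axis) for 8 genes that did not pass in Bach1 KO against WT, with 1 point per array and a line at the mean of each genotype, in the order Bach1 KO, WT, DKO and Bach2 KO. Gclm, Hmox1, Spic, Slc40a1 and C4b lie higher, and Ptprs lower, in the arrays without Bach1 than in their counterparts with it, while Lrg1 and Hr differ between Bach1 KO and WT and overlap between DKO and Bach2 KO.

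Other genes close to the threshold were taken by rank of p among those whose groups do not overlap. In all, 30 genes or transcripts had an adjusted p between 0.05 and 0.1. Just inside the threshold lay Tafa5 (adjusted p = 0.0304) and Armcx2 (adjusted p = 0.0278), and just outside Hr (adjusted p = 0.0502) and Gclm. C4b, complement component C4, read 3.23, 3.04 and 2.98 in Bach1 KO, against -0.35, -1.78 and 1.23 in WT (3.38 ± 0.57, adjusted p = 0.0628). Lrg1, a secreted leucine-rich glycoprotein of the acute phase, read 6.00, 5.76 and 5.50 in Bach1 KO, against 3.20, 2.54 and 4.01 in WT (2.50 ± 0.43, adjusted p = 0.0628). The other genes that lay higher were Crtac1 (2.56), a matrix protein gene, Vps37b (2.40), a subunit of the ESCRT sorting machinery, Mustn1 (3.33), Slc6a8 (2.84), the creatine transporter, Tnni3k (3.12), a kinase gene, Slc36a2 (4.16), a proton-coupled amino acid transporter, and Ivd (1.13), an enzyme of leucine breakdown.

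Hr, which encodes a nuclear receptor corepressor, led the genes that lay lower. It read -2.35, -1.10 and -1.28 in Bach1 KO, against 1.68, 2.19 and 2.96 in WT (-3.85 ± 0.61, 14.4-fold), and it passed in 12 of 28 other settings. Ptprs, a receptor tyrosine phosphatase, read 0.58, 0.31 and 1.12 in Bach1 KO, against 2.04, 2.21 and 2.63 in WT (-1.63 ± 0.28, adjusted p = 0.0679). The others ranged from Arhgap15 (-3.61), a regulator of Rac, to Emb (-1.08), the membrane glycoprotein embigin. They included Eif4e3 (-3.01), a cap-binding protein gene, Ganc (-2.61), a glucosidase gene, Smad6 (-2.12), an inhibitor of BMP signalling, Lmtk2 (-2.02), Cldn7 (-1.77), a claudin, Sccpdh (-1.74) and Clec1b (-1.61), the podoplanin receptor CLEC-2.

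Genes that crossed the background limit were ranked by their bound. Above background on all Bach1 KO arrays and on no WT array were Tspan1 (at least 9.77-fold), a tetraspanin, Slc3a1 (at least 6.60-fold), a subunit of a cystine transporter, Poln (at least 6.22-fold), a DNA polymerase, the glypican gene Gpc2 (at least 5.16-fold) and Lin7b (at least 4.83-fold). None of the 5 passed, with adjusted p between 0.0892 and 0.258. In the other direction were Fbp1, Btla and Armcx2, which passed, and Pianp (at least 6.92-fold) and Maob (at least 4.77-fold), a monoamine oxidase, which did not (adjusted p = 0.282 and 0.0572).

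The other lists held no called member by limma. Of 49 genes of mitosis and DNA replication, 47 passed the filter, and 6 had an unadjusted p under 0.05, all lower, among them Aurkb (-1.50 ± 0.42), Cdc6 (-1.17 ± 0.36), Ttk (-1.81 ± 0.58) and Cdk1 (-0.69 ± 0.26). A second Cdc6 probe, above background on all 6 arrays, differed by 0.26 in the opposite direction, and other Cdk1 probes by 0.83 and -1.27. The 6 are 12.8% of those measured, against 3.11% of all genes. Of 34 PPARgamma, fatty acid and lipid droplet genes, 4 with an unadjusted p under 0.05 were higher (11.8%, against 2.65% of all genes) and 1 lower (2.94%, against 3.11%). These were Acot2, a mitochondrial thioesterase (2.69 ± 0.84), Lipe, hormone-sensitive lipase (1.29 ± 0.45), the droplet protein gene Plin5 (2.04 ± 0.80), Cd36 (0.56 ± 0.22) and Fabp5. Of 41 respiratory chain and ATP synthase genes, 0 had an unadjusted p under 0.05, against 5.76% of all genes. Among them, 3 differences were above 0 (7.32%, against 41.4% of all genes), with a median of -0.19. The list medians are small: with no scaling, which moves all genes alike by 0.153, those of 17 of the 35 lists changed sign, as did 9 with quantile normalization and 3 with normexp.

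Among immune lists, the interferon-stimulated genes Oas2 (1.73 ± 0.44) and Oasl1 (0.89 ± 0.34) lay higher and Gbp3 (-0.84 ± 0.28) lower, out of 25 measured. They are the list's members with an unadjusted p under 0.05: 8% higher, against 2.65% of all genes, and 4% lower, against 3.11%. The list's median was -0.06. Of the chemokine genes, Cxcl3, a neutrophil attractant, read 0.02, 0.13 and 0.47 in Bach1 KO, against -1.03, -1.69 and -0.52 in WT (1.29 ± 0.33, adjusted p = 0.263), and Ccl9 differed by 0.89 ± 0.24, while the receptor gene Ccr7 lay lower (-2.11). Of the 22 measured in that list, 7 differences were above 0 (31.8%, against 41.4% of all genes), with a median of -0.32. Of 25 Toll-like receptor and adaptor genes, 22 passed the filter, and an unadjusted p under 0.05 was reached by 0, against 5.76% of all genes. Of 30 metalloproteinase and matrix genes, 19 passed the filter, with a median of -0.20. With an unadjusted p under 0.05, 2 were higher (10.5%, against 2.65% of all genes), the inhibitor gene Timp1 (0.69 ± 0.31) and Mmp19 (0.74). Lower were 3 (15.8%, against 3.11%), the inhibitor gene Timp2 (-1.43 ± 0.35), Adam8 (-1.96) and Fn1 (-0.53). Asns, asparagine synthetase, differed by 1.42 ± 0.35. It was the 1 ATF4 and unfolded protein response gene of 24 measured with an unadjusted p under 0.05 (4.17%, against 5.76% of all genes). Cd9 and Fabp5, above, were the alveolar macrophage markers with the smallest p, and Siglecf (-0.48), Marco (0.11) and Pparg (-0.15) had no p under that limit. Of the 32 markers, 5 differences were above 0 (15.6%, against 41.4% of all genes), with a median of -0.22.

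**Figure D3:**
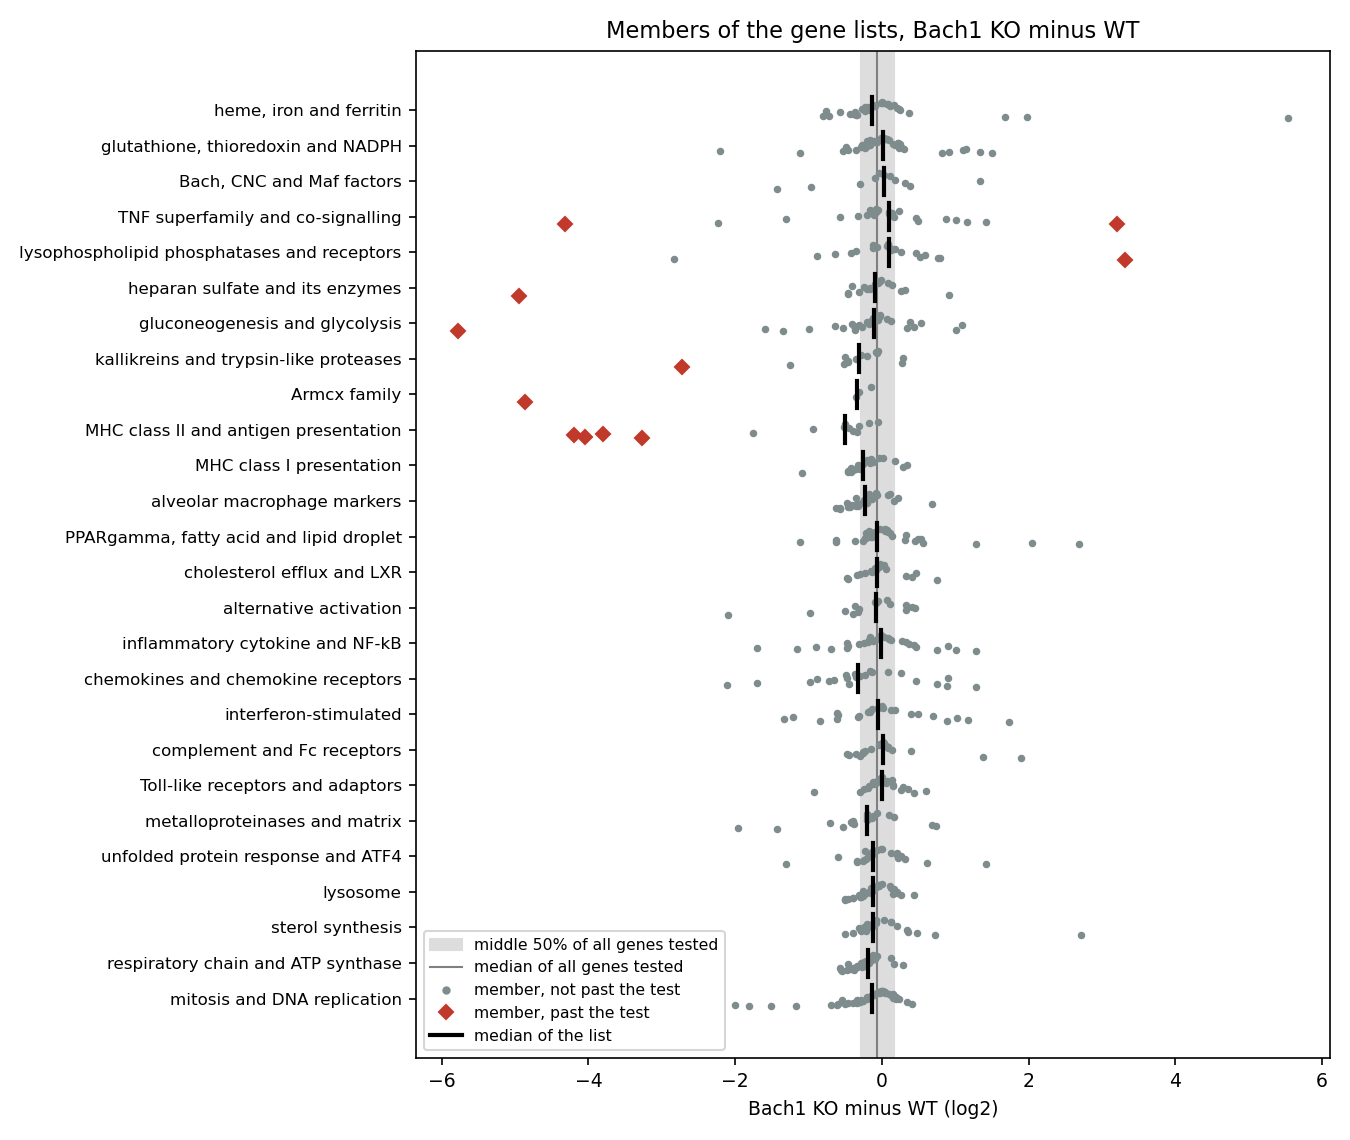
Difference between Bach1 KO and WT (horizontal axis, log2) for each measured member of the 25 pathway lists and the alveolar macrophage markers, with red diamonds for members that passed the test and a black bar at each list's median. The grey band holds the middle 50% of all genes tested; most medians lie inside it, and that of MHC class II and antigen presentation lies at -0.51.

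No marker of other cells passed the test. Of 16 dendritic cell markers, 11 passed the filter and 0 passed the test. Of these, 3 had an unadjusted p under 0.05, all lower: Batf3 (-1.50), Ccr7 (-2.11) and Irf8 (-0.48). That is 27.3% of those measured, against 3.11% of all genes. The defining markers Xcr1, Cd209a and Dpp4 were not above background, and Zbtb46 and Flt3 differed by 0.09 and -0.41. The list's summed signal was 67.6 to 124 in Bach1 KO and 100.2 to 132 in WT. Differences were above 0 for 5 of the 11 (45.5%, against 41.4% of all genes), up to 1.49 for Clec9a. The list's median was -0.12, against -0.07 over all genes tested. The part of these 3 markers in the falls of the MHC class II genes and Btla was not tested. Fewer cells of a type and less RNA per cell cannot be told apart in such samples.

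B cell markers, beside Btla, were mostly silent. Of 17, 5 passed the filter, and Cd79a, Cd79b, Ms4a1 and Pax5 were not above background; the summed signal was 6.61 to 7.04 in Bach1 KO and 6.15 to 8.79 in WT. Of 24 T and NK cell markers, 10 passed, with Lck at 1.57 and Lat at -1.02, while Cd3d, Cd3g and Cd247 were not above background; the sums were 3.78 to 5.93 in Bach1 KO and 5.53 to 9.84 in WT. Of 19 monocyte markers, 15 passed, with S100a4 at -2.47, Treml4 at 1.02 and Fn1 at -0.53, and sums of 257 to 344 in Bach1 KO and 328 to 454 in WT. Their median was -0.25. With an unadjusted p under 0.05, 1 monocyte marker was higher (6.67%) and 2 lower (13.3%). Of the T and NK cell markers 1 was higher and 1 lower (10% each). Over all genes these shares were 2.65% and 3.11%. Of 15 neutrophil, 19 lung epithelial and 15 stromal and endothelial markers, 10, 12 and 5 passed the filter. An unadjusted p under 0.05 was reached by 0, 1 and 0 of them, against 5.76% of all genes. The sums of epithelial markers were 51.6 to 61.7 in Bach1 KO and 52.5 to 62.2 in WT, with Sftpb, Ager and Nkx2-1 not above background. No member of these lists passed the test, and their part in any result was not tested.

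The same loss of Bach1 can be read a second time in cells that lack Bach2, from DKO against Bach2 KO, which shares no array with Bach1 KO against WT. DKO arrays alone lay on slide 3, scanned on a later day, so that genotype and slide cannot be told apart there. In that comparison 741 of 24371 genes or transcripts passed (3.04%). Of the 482 with an unadjusted p under 0.01 in Bach1 KO against WT, 37 also passed in DKO against Bach2 KO. That is 7.68% of the 482 and 4.99% of the 741. Of the 37, 26 went the same way, 12 higher and 14 lower, and 11 went opposite ways. Across all genes tested, which are not independent replicates, Pearson's r between both differences was -0.000221.

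The known BACH1 targets Gclm, Hmox1, Spic and Slc40a1 were among the 26. Gclm read 2.73, 2.77 and 3.28 in DKO, against 1.22, 1.36 and 1.72 in Bach2 KO (1.49 ± 0.24, adjusted p = 0.00692), and its difference between both backgrounds was -0.02 ± 0.34. Hmox1 read 6.99, 7.23 and 7.62 in DKO, against 5.11, 5.05 and 4.83 in Bach2 KO (2.28 ± 0.33, adjusted p = 0.00329). Spic rose in DKO to 2.39, 1.80 and 2.56, against -2.78, -1.98 and -2.67 in Bach2 KO (4.72 ± 0.94, adjusted p = 0.0225). Slc40a1 rose by 3.04 ± 0.53 (adjusted p = 0.0113), with means of 0.29 ± 0.28 in DKO and -2.75 ± 1.31 in Bach2 KO, all 6 arrays below the lowest WT array. C4b rose by 2.77 ± 0.57 (adjusted p = 0.0253), and Ptprs fell by 1.59 ± 0.28 (adjusted p = 0.012). The interaction tests whether the difference on the Bach2-null background departs from that with Bach2 intact. It did not pass for any of these 6 (adjusted p from 0.524 to 0.989). All 6 are among the 26 picked for going the same way in both comparisons, which favoured this outcome. It therefore does not show equal differences.

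Fbp1 fell on both backgrounds. It read 1.24, 1.61 and 2.0 in DKO, against 5.73, 6.11 and 5.05 in Bach2 KO, a fall of 4.02 ± 0.35 (adjusted p = 0.000118). Its level was above background on all 6 of these arrays, and higher than in WT. The interaction did not pass (adjusted p = 0.166), and the Bach1 KO level was below background.

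The called genes were also compared between the backgrounds. The interaction, (DKO minus Bach2 KO) minus (Bach1 KO minus WT), passed for 131 of 24371 genes (0.538%). Where a genotype's signal was not above background on any array, its adjusted p alone is given here. Of the 17 transcripts called in Bach1 KO against WT it passed for 10, of which 9 are named: Tnfsf14, Plpp3, Hpse, Klk8, Asah2 and the 4 MHC class II genes. The 17 were chosen by their Bach1 KO minus WT difference, which the interaction subtracts, so that their selection favoured a pass. Tnfsf14 read 2.45, 2.77 and 3.53 in DKO, against 2.30, 2.08 and 2.77 in Bach2 KO, a difference of 0.54 ± 0.35 and an interaction of -2.67 ± 0.49 (adjusted p = 0.0363). Plpp3 read 4.42, 5.22 and 4.97 in DKO, against 4.42, 5.20 and 4.49 in Bach2 KO (interaction -3.15 ± 0.58, adjusted p = 0.0363). Without Bach2, both genes read above every WT array with or without Bach1.

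Hpse stood high without Bach2, at 3.59, 4.01 and 3.60 in DKO and 3.92, 4.36 and 3.64 in Bach2 KO (interaction 4.71 ± 0.77, adjusted p = 0.0212). Btla and Armcx2 were also above background on all DKO and Bach2 KO arrays, with means of 0.07 and 0.41 for Btla and 1.16 and 1.48 for Armcx2, and their interactions did not pass (adjusted p = 0.0626 and 0.0814). Klk8 stood low instead, at -2.48, -3.66 and -2.59 in DKO and -3.25, -3.34 and -3.36 in Bach2 KO (interaction 3.13 ± 0.52, adjusted p = 0.0226).

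A few genes ran in opposite directions. Mustn1 was not above background on any DKO array and read -1.75, -1.34 and -2.90 in Bach2 KO, where it fell with Bach1 loss, while it lay higher in Bach1 KO than in WT (interaction adjusted p = 0.000759). Slc36a2 read -0.30, 0.40 and 0.94 in DKO, against 3.52, 3.63 and 3.26 in Bach2 KO (interaction -7.28 ± 1.23, adjusted p = 0.0241). Neither DKO against Bach2 KO nor Bach1 KO against WT passed for it alone. Cxcl3 fell by 3.03 ± 0.33 in DKO against Bach2 KO (interaction -4.31 ± 0.47, adjusted p = 0.00214).

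**Figure D4:**
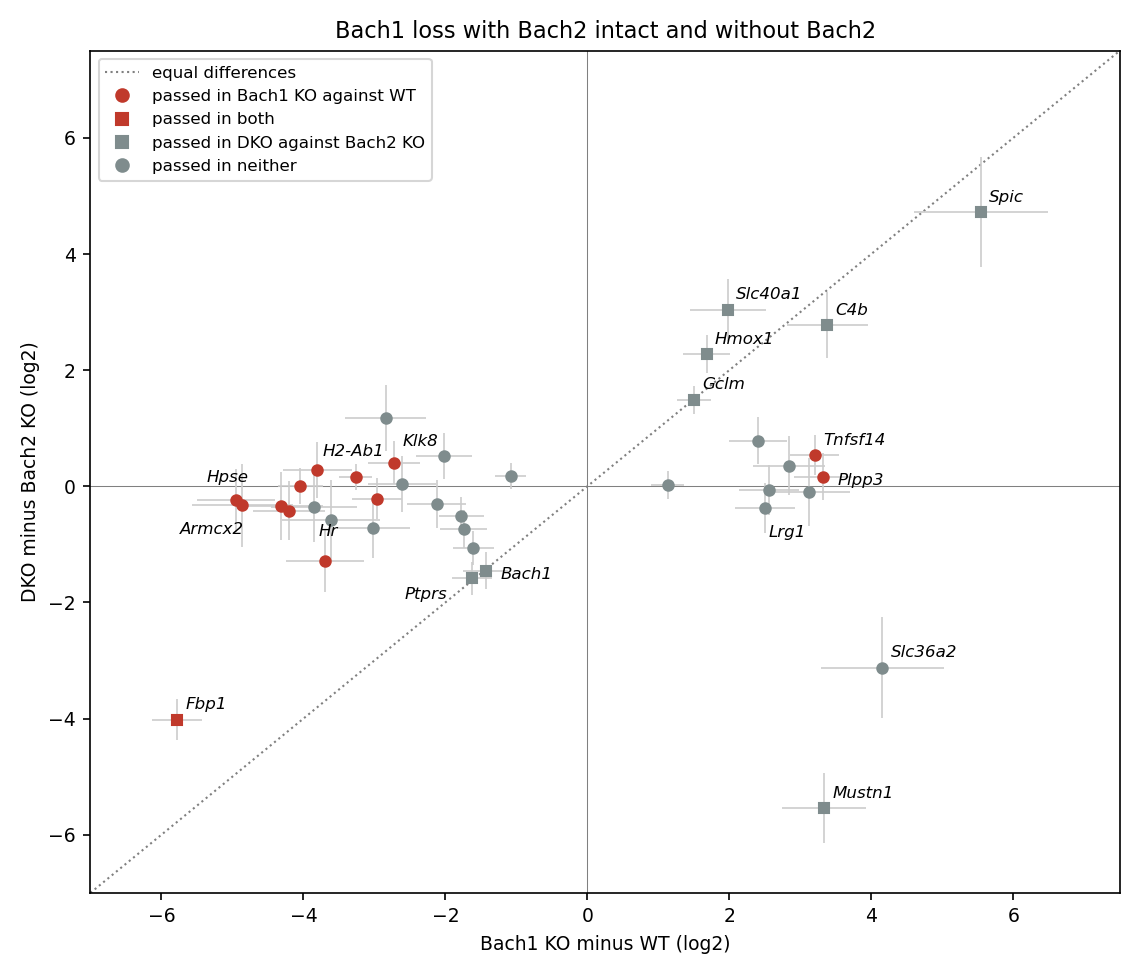
Difference between Bach1 KO and WT (horizontal axis, log2) against that between DKO and Bach2 KO (vertical axis, log2) for Bach1, the named genes that passed, the genes close to the threshold and Slc40a1, with bars of 1 SE. Gclm, Hmox1, Slc40a1, Spic, C4b, Ptprs and Bach1 lie near the dotted line of equal differences, Fbp1 lies low on both axes, and most other called genes lie near 0 on the vertical axis.

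Genes near the targeted locus were counted as well. Within 5 Mb of Bach1 on chromosome 16, 46 other named genes were tested. Of these 0 passed, against 0.0698% of all genes, and 2 had an unadjusted p under 0.05, against 5.76%. Their differences ran from -0.59 to 0.99, with a median of 0.01. At so low a share, 0 of 46 does not tell the locus from other genes. Of the 13 called genes, 4 lie on chromosome 17 (Tnfsf14 and 3 MHC class II genes), and the others lie on 9 different chromosomes.

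**Figure D5:**
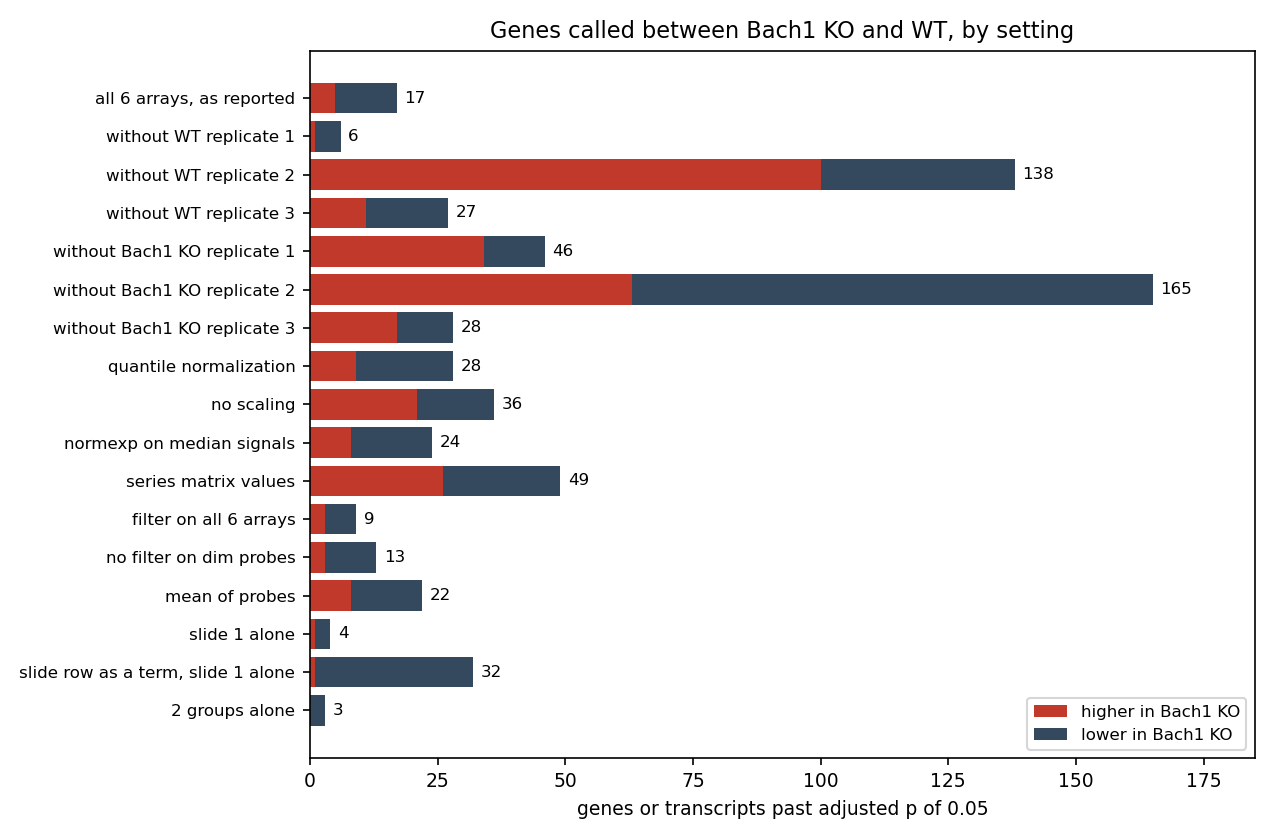
Number of genes or transcripts past an adjusted p of 0.05 in Bach1 KO against WT (horizontal axis), split into those higher and lower in Bach1 KO, as reported (top bar, 17) and under other settings. Leaving out WT replicate 2 or Bach1 KO replicate 2 gives the longest bars, 138 and 165, and the fit of the 2 groups alone gives 3.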

How the data were processed

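The 12 single-colour Agilent arrays hold amplified RNA of sorted alveolar macrophages. Per the file headers, the deposited intensity per spot was background-subtracted and spatially detrended by Agilent Feature Extraction 10.7.3.1 (the submitters' processing notes give 9.1) and not normalized between arrays. The deposited series matrix holds log2 values of the same arrays, used as an alternative; its processing is not stated, and its scale was settled by a match to the scanner values (r of 0.99992 to 0.99997). Each probe is centred there on its median.

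In R 4.3.3 (limma 3.58.1), log2 processed signals were centred on the array's 75th percentile of non-control spots, outlier spots (201 to 359 an array) dropped and a probe's spots averaged. A probe was kept if well above background on all 3 arrays of Bach1 KO or of WT (27832 of 55681), and the brightest probe stood for each gene. RefSeq accessions (GRCm38.p6) named 26413 probes, and 12782 of 24372 tested genes are named. The fit gave each genotype its own mean and used all 12 arrays (lmFit, eBayes with trend, 8 residual degrees of freedom). The number of arrays limits the precision. The 35 lists (903 members), the genes and the tests were chosen with earlier results of these data known, and no list was tested.

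Named genes are Bach1 and Bach2, every named gene that passed, 12 per direction of smallest p that did not pass and whose groups do not overlap, 5 per direction by bound and up to 6 per pathway list. Replicate numbers were not used to pair the mice in the main fit. Deviations of same-numbered arrays correlated at 0.0175, 0.324 and -0.0197, and 0.324, for arrays 2, was the highest of all WT and Bach1 KO pairs. Alternatives were other normalizations, filters, probe rules, slide terms, a replicate block and each array left out. The method was tested on simulated data.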

Additional observations from a re-analysis of the deposited data

Results flagged for a closer look

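The results below differed between Bach1 loss with Bach2 intact (Bach1 KO minus WT) and Bach1 loss without Bach2 (DKO minus Bach2 KO) by the interaction test, the second difference minus the first. DKO arrays alone lay on slide 3, so genotype and slide cannot be told apart in it. The called genes among them were chosen by the first difference, which the interaction subtracts. Of genes that rose with Bach1 loss alone, the interaction was -2.67 for Tnfsf14 (adjusted p = 0.0363) and -3.15 for Plpp3 (adjusted p = 0.0363), and it was -3.08 for the unnamed transcript A_30_P01021560 (adjusted p = 0.0433). Of genes that fell, it was 4.71 for Hpse (adjusted p = 0.0212), 3.13 for Klk8 (adjusted p = 0.0226) and 2.75 for Asah2 (adjusted p = 0.0346), whose probes disagree and whose Bach1 KO readings were not above background. For the MHC class II genes it was 3.43 for H2-Ab1, 4.05 for H2-Eb1, 3.78 for H2-Aa and 4.08 for Cd74. Of genes that did not pass with Bach1 loss alone, it was -8.87 for Mustn1 (adjusted p = 0.000759), a value that rests on DKO readings not above background, -7.28 for Slc36a2 (adjusted p = 0.0241) and -4.31 for Cxcl3 (adjusted p = 0.00214).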

How the results depend on the processing

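The 17 genes or transcripts called became 28 with quantile normalization, 36 with no scaling and 49 with the series matrix values. They became 9 with the filter on all 6 arrays, 4 on slide 1 alone, 32 with slide row as a term and 3 in the fit of the 2 groups alone. Leaving out the arrays 3 of WT and of Bach1 KO together gave 37, and leaving out their arrays 2 together gave 307; both were chosen after seeing the data. With 1 array left out the count ranged from 6 to 165, and that of the interaction, 131 with all arrays, from 39 to 267. The replicate block gave 16 calls and 105 for the interaction. It was run because the labels number the mice alike in each genotype. Deviations of same-numbered WT and Bach1 KO arrays correlated at 0.324 for arrays 2, and at 0.0175 and -0.0197 for arrays 1 and 3. Of the values of the 17 under other settings, 367 stayed past the threshold, 97 did not, and 3 were reversed, all of them Asah2: 1.27 with no filter on dim probes, 1.14 without both arrays 3, and from -3.10 to 2.49 with 1 array left out. In the 3 reversed values the other Asah2 probe stood for the gene, so the probe that was called did not itself turn. Bach2 was at -0.60 without WT replicate 3, at the low end of a range that reached 2.37, and at -0.31 without both arrays 3. Prdx1 (0.18) and Cdc6 (0.27) reversed with the series matrix, which holds other probes of some genes, and Plin5 (-0.27) with slide row as a term. Bach1 kept its direction throughout, from -1.25 to -1.53, and did not pass in any setting. Normexp could be run only on median signals, added later, since the files hold no mean signals.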

Other observations

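Of the genes that lay in the same direction in both comparisons of Bach1 loss, 10 named ones fall outside the rule for named genes and were chosen after their values were seen. Each passed in DKO against Bach2 KO and had an unadjusted p under 0.01 in Bach1 KO against WT without passing there. Lower were Gpd1, glycerol phosphate dehydrogenase (-2.59 in DKO against Bach2 KO, -1.41 in Bach1 KO against WT), Scd2, a stearoyl-CoA desaturase (-1.74 and -1.02 in the same order), and Chst15, a sulfotransferase that acts on chondroitin sulfate (-2.76 and -1.71). Plxdc2, a membrane protein gene, stood at -3.72 and -0.81 (the size differed, interaction adjusted p = 0.00342), Asb4 at -2.17 and -1.25, Rem1, a small GTPase gene, at -2.03 and -1.74, and Cttn, which encodes the actin-binding cortactin, at -1.33 and -1.10. Higher were Zbtb38, a zinc finger gene (3.01 and 2.59), Raet1e, a ligand of the NKG2D receptor of NK cells (1.41 and 0.86), and Ppp1r15b, a regulatory subunit of the phosphatase of eIF2 alpha (1.02 and 0.88).

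Among the 17 called transcripts, 4 had no gene name. The transcript of probe A_30_P01029350 read -1.71, -3.69 and -0.56 in Bach1 KO, against no array above background in WT, at least 13.4-fold higher (adjusted p = 0.00954). It was also higher in DKO than in Bach2 KO (adjusted p = 0.047), where no Bach2 KO array was above background. A_30_P01021607, which the array design places in the same region, read -1.61, -4.33 and -0.88 in Bach1 KO, against no array above background in WT (at least 10.98-fold, adjusted p = 0.0248), so that both probes may read 1 transcript. A_30_P01021560 read -1.54, -2.70 and -2.69 in Bach1 KO, against -5.44, -5.33 and -4.95 in WT (2.93 ± 0.42, adjusted p = 0.0237). A_66_P117513 read -6.10, -4.92 and -6.19 in Bach1 KO, with 2 of 3 arrays above background, against -1.84, -2.42 and -1.30 in WT (-3.88 ± 0.41, adjusted p = 0.00367).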
